A study of Mus musculus with 15 samples.

Results

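Neuronatin (Nnat) and 9 other imprinted genes, Blcap, Dlk1, Meg3, Peg3, Plagl1, Cdkn1c, Grb10, Peg10 and Mest, were followed through sorted alpha, beta and delta cells of the mouse islet. They are 10 of the 38283 genes in the expression table and were taken by gene symbol. The genes were chosen by their FPKM in the 3 cell types, with the differences between those cell types already in view, so the differences of these 10 genes are given as a description with no test. Nnat and Blcap share a locus with a microRNA entry, AL672259.1, whose values are given with theirs.

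The series holds 15 samples from mice of the C57BL/6 strain. Alpha cells (n = 5) were the Venus-positive cells of Glu-Venus mice, in which the proglucagon promoter drives the fluorophore, and beta cells (n = 4) were taken from the Venus-negative cells of that line by scatter and autofluorescence. Delta cells (n = 6) were the EYFP-positive cells of Sst-CreXROSA26EYFP/EYFP mice, in which Cre under the somatostatin promoter switches on EYFP, so a cell that once expressed somatostatin stays marked. No treatment is named, the ages were not in the labels, and islets of several mice were pooled for each sample, so replicates here are pools of mice. The delta cells thus came from another mouse line than the alpha and beta cells, and effects of line and of cell type cannot be told apart. Expression is given as FPKM, a read count divided by transcript length and by the sample's total of mapped reads. Differences are those of mean log2(FPKM + 1), with limma's standard error (SE), and this scale understates the change of genes with low values.

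An imprinted gene is expressed mainly from the copy inherited from a single parent, because a DNA methylation mark set in the germ line of a parent tells the copies apart. Such genes lie in clusters, and a cluster can hold genes expressed from the maternal and from the paternal copy. Many act in growth and metabolism, and in islets the loss of imprinting at some of them disturbs beta cell number or insulin secretion. The reads were not assigned to a parental copy here, so every value is the sum over both copies.

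Gcg, Ins2 and Sst were each highest in the cell type labelled for them, with no overlap. Gcg was at 184426 to 344947 FPKM in alpha cells and at most at 1817 FPKM in beta and 767 FPKM in delta cells. Ins2 was at 91248 to 638871 FPKM in beta, 2634 to 9094 FPKM in alpha and 3803 to 7190 FPKM in delta cells. The summed FPKM of the delta cell markers Sst, Hhex, Ghsr and Rbp4 lay between 102594 and 267813 in delta cells, 1405 and 3346 in alpha cells and 38.7 and 474 in beta cells. Ppy, the marker listed for PP cells, was at 17728 to 41392 FPKM in alpha cells, 10857 to 48600 FPKM in delta cells and 16.9 to 98.1 FPKM in beta cells, and its part in the results was not tested. The 6 mesenchymal markers summed to 0.848 to 3.79 FPKM in alpha cells, to at most 0.00687 FPKM in beta cells and to at most 0.101 FPKM in delta cells, with Col1a1 and Pdgfra listed at 0 in every sample. The 6 ductal markers summed to 40.4 to 184 FPKM in alpha, 37.1 to 106 FPKM in delta and 14.3 to 32.7 FPKM in beta cells, and the 6 endothelial markers to 1.54 to 2.93 FPKM, 3.12 to 6.17 FPKM and 0.642 to 3.37 FPKM. The 5 markers of macrophages and leukocytes summed to at most 2.03 FPKM and the 4 of Schwann cells to at most 1.35. The sum of 8 acinar markers was higher in delta cells, from 20.3 to 524 FPKM, than in beta cells, from 0.0283 to 13.7 FPKM, with 0.122 to 74.6 FPKM in alpha cells. The part of other cells in the results was not tested. The samples also fell into 2 sets when FPKM was summed over 82 genes of ribosomal proteins: alpha samples 1, 2 and 3, beta sample 2 and delta samples 1 and 2 were between 65333 and 140073 and the other 9 between 7872 and 38611. In such bulk samples fewer cells of a type and less RNA per cell cannot be told apart. The sets are called high and low here, and values within them are given for some of the genes.

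Sequences of the start regions of the genes that the results turn on are shown first. Cytosines followed by guanine, the bases that can carry an imprinted mark, stand in capitals. Methylation was not measured, and whether any stretch shown lies within the marked region of its domain was not examined. They are RefSeq sequences of GRCm38.p6, written in the direction of the gene, and the first 4 end just before a transcription start. The Nnat stretch is chr2:157560008-157560077 on the plus strand, the 70 bases before the start of Nnat that no annotated exon covers, with 4 CG. Further upstream begins an exon of Blcap. The Dlk1 window is chr12:109452573-109452822, plus strand, with 8 CG in 250 bases. The Mest window is chr6:30737800-30738049, plus strand, before the start at 30738050, 1 of 3 in RefSeq, with 14 CG. The window before the Mest start at 30733506 holds 7. The Grb10 window is chr11:12037421-12037670, minus strand, before the upstream of 2 RefSeq start regions, with 40 CG, a number that 1.31% of the 32851 RefSeq windows of the same length reach. The other Grb10 window, chr11:12027972-12028221, holds 8, which 43.0% reach. The median of the 32851 windows is 6. The last line is the whole stretch between Peg3, read from the minus strand, and Usp29, read from the plus strand, chr7:6730432-6730577, whose 146 bases are written along the plus strand and hold 5 CG.
Nnat: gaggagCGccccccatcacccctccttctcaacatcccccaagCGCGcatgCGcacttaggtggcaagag
Dlk1: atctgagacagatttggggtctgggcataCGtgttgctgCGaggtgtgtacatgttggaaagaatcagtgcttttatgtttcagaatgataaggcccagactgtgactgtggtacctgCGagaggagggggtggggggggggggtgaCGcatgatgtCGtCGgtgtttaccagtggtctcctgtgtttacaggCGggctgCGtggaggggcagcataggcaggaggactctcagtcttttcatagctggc
Mest: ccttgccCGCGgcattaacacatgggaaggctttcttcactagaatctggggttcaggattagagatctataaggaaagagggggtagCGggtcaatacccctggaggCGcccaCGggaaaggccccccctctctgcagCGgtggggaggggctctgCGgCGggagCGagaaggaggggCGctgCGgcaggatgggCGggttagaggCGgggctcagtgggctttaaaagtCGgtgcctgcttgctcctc
Grb10: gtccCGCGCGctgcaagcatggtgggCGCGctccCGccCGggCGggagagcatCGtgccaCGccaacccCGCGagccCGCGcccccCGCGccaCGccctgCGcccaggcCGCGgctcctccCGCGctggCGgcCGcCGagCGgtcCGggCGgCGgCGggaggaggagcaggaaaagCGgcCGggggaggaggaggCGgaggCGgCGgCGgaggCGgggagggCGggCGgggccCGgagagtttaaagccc
Peg3 and Usp29: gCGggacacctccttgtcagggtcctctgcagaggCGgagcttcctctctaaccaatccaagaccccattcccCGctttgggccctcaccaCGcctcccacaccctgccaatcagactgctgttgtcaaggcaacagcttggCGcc

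The letters TGCCGC, to which the zinc finger protein ZFP57, a keeper of imprints in the early embryo, is known to bind, were searched on both strands. They occur 2 times in the Mest window and 0 times in the other windows shown. Over the 12 RefSeq windows that 8 of the 10 genes have, 4 hold the letters, 2 of them overlapping windows of Mest, and 8.68% of all promoter windows do. Apart from Mest these were a window of Meg3 and that of Plagl1.

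Nnat encodes a small proteolipid of the endoplasmic reticulum membrane, expressed from the paternal copy, and is known in beta cells for a part in the processing of preproinsulin. Its gene lies on chromosome 2, 157560078 to 157562522, plus strand (GRCm38). Nnat was at 449, 366, 335, 332, 209 and 250 FPKM in delta samples 1 to 6. In alpha samples 1 to 5 it was at 1.87, 3.37, 8.97, 1.82 and 6.55 FPKM, and in beta samples 1 to 4 at 4.79, 53.6, 6.40 and 4.32 FPKM. Every delta sample was above every alpha and beta sample, and by its mean of 323 ± 85.3 FPKM (SD, n = 6) Nnat ranked 165th of all genes in delta cells, against 7444th in alpha cells and 3076th in beta cells (5700th without beta sample 2). The difference was 6.02 (SE 0.557) from alpha and 4.90 (SE 0.594) from beta cells on the log2 scale.

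Alpha and beta cells overlapped in Nnat. Beta sample 2 stood alone among the beta samples, and the mean of the others was 5.17 ± 1.09 FPKM (SD, n = 3), beside 4.52 ± 3.15 FPKM (SD, n = 5) in alpha cells. Beta less alpha was 1.13 (SE 0.617) and 0.33 (SE 0.432) without beta sample 2. That sample also had the highest sum of delta cell markers of the beta samples, 474 FPKM against 38.7 to 91.1, which is 0.287% of the mean of the delta samples. In alpha cells the delta cell markers were at 1.38% of their mean in delta cells, and Nnat was at 1.40% of its own. Of these markers Rbp4 was at 45.9%, with alpha and delta cells overlapping, while Sst was at 0.992%, Hhex at 0.991% and Ghsr at 1.35%. Among the other genes Dlk1 was at 1.26%, Mest at 12.8% and Plagl1 at 14.5%. In beta cells the delta cell markers were at 0.103%, Nnat at 5.34%, Dlk1 at 0.154%, Mest at 1.49% and Plagl1 at 13.4%. Some of these shares rest on 1 sample. In alpha cells Mest was at 3.79% without sample 2 and Plagl1 at 7.74% without sample 5. In beta cells the delta cell markers were at 0.0417% and Nnat at 1.60% without sample 2, Dlk1 at 0.038% without sample 1 and Plagl1 at 8.28% without sample 3. The part of carried-over delta cell RNA in the low values was not tested.

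Blcap, a gene of the minus strand whose product is a small membrane protein first described in bladder cancer, spans 157556362 to 157571274, and the whole of Nnat lies between its exons. No base of a Nnat exon lies in a Blcap exon. Blcap was at 18.8, 24.0, 18.5, 13.6, 13.4 and 18.3 FPKM in delta samples 1 to 6, at 4.76, 8.45, 4.01, 3.31 and 10.6 FPKM in alpha samples 1 to 5 and at 12.2, 21.3, 10.8 and 8.02 FPKM in beta samples 1 to 4. Every delta sample was above every alpha sample, and delta and beta cells overlapped. The differences were 1.46 (SE 0.335) for delta less alpha, 0.99 (SE 0.371) for beta less alpha and 0.47 (SE 0.357) for delta less beta. FPKM of Nnat divided by FPKM of Blcap was between 13.7 and 24.5 in delta cells, against 0.393 to 2.24 in alpha and 0.393 to 2.52 in beta cells.

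The microRNA entry AL672259.1 is annotated on the minus strand, at 157562361 to 157562447, and its 87 bases lie wholly within the last exon of Nnat and in no exon of Blcap. Whether reads were counted by strand is not given in the sources used here, so reads of this entry and of Nnat cannot be told apart, and FPKM of so short a feature is scaled up by its length. It was at 6567, 3908, 1909, 2348, 2486 and 3626 FPKM in delta samples 1 to 6, at 289, 858, 85.7 and 40.7 FPKM in beta samples 1 to 4, at 142, 257 and 140 FPKM in alpha samples 2, 3 and 4, and listed at 0 in alpha samples 1 and 5. Its order over the cell types was that of Nnat, and beta sample 2 was again the highest of the beta samples. FPKM of the entry divided by that of Nnat was 5.69 to 14.6 in delta cells, 9.41 to 60.3 in beta cells and 0, 42.0, 28.6, 76.7 and 0 in alpha samples 1 to 5. The 3 alpha samples with a value above 0 were above all delta samples in this ratio.

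**Figure D1:**
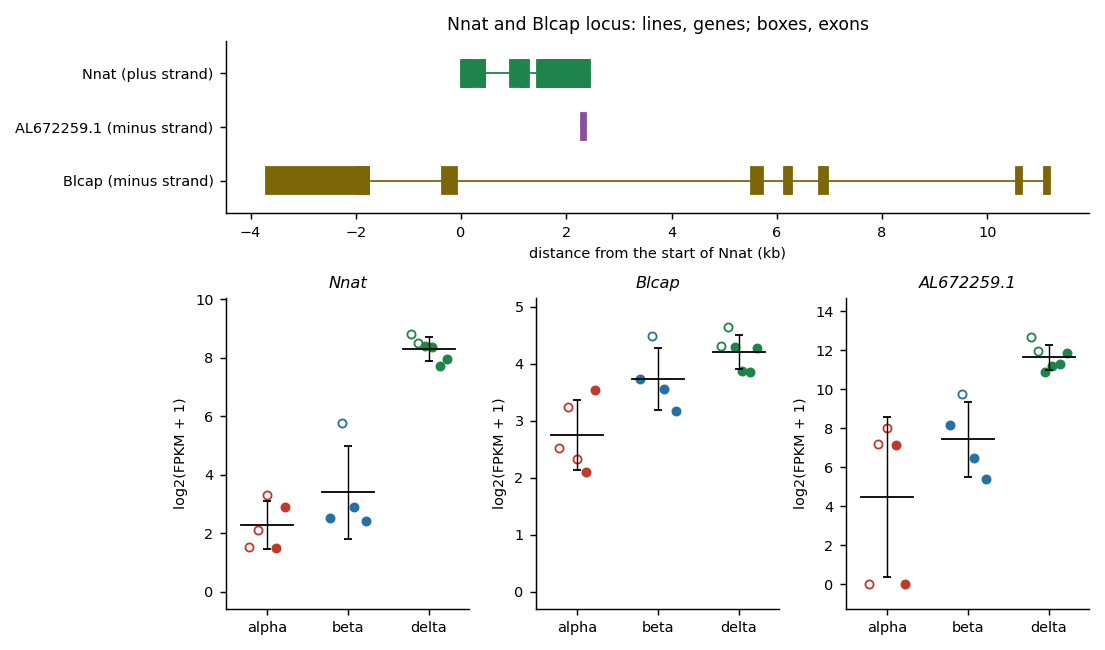
Top, the genes of the Nnat and Blcap locus by distance from the start of Nnat in kilobases, with lines for genes and boxes for exons. Bottom, log2(FPKM + 1) of the 3 entries in each sample, where open points are samples of the high set, bars are means and whiskers SD; the 6 delta samples lie above all others for Nnat and AL672259.1 and overlap beta cells for Blcap.

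Dlk1, a transmembrane protein with EGF-like repeats related to the Notch ligands and expressed from the paternal copy, was near 0 outside delta cells. It lies on chromosome 12, 109452823 to 109463336, plus strand. It was at 35.2, 13.3, 41.1, 45.2, 22.5 and 26.5 FPKM in delta samples 1 to 6. In alpha samples 1 to 4 it was at 0.129, 0.755, 0.790 and 0.261 FPKM, in beta samples 1 and 4 at 0.154 and 0.0349 FPKM, and it was listed at 0 in alpha sample 5 and beta samples 2 and 3. The lowest delta sample was above every alpha and beta sample. Delta less alpha was 4.45 (SE 0.311), delta less beta 4.82 (SE 0.332) and beta less alpha -0.37 (SE 0.345). A pseudocount of 0.1 moved them to 6.29, 7.71 and -1.41.

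Meg3, a long non-coding RNA expressed from the maternal copy of the same domain, starts 77664 bases after the end of Dlk1 and did not separate the cell types. It was at 9.40 to 25.1 FPKM in delta cells with a median of 15.9, at 24.4, 12.2, 32.6, 12.4 and 11.2 FPKM in alpha samples 1 to 5 and at 25, 24.5, 8.38 and 6.55 FPKM in beta samples 1 to 4. All 3 pairs of cell types overlapped. The differences were -0.29 (SE 0.475) for beta less alpha, -0.13 (SE 0.429) for delta less alpha and 0.16 (SE 0.457) for delta less beta, and each changed sign under some of the alternatives. Of 5 further genes of the domain, Rian and Mirg, non-coding RNAs that host small RNAs, were above the filter and passed the test in none of the 3 comparisons, by limma with Benjamini-Hochberg adjustment over the 14405 genes tested (lowest adjusted p = 0.125, Mirg, delta against beta). Without adjustment, Mirg alone was under 0.05. Delta against beta cells passed for Mirg in 4 of 24 alternatives (adjusted p from 0.0151 to 0.317), among them the low set alone, the set as a covariate and the fit without beta sample 2, and delta against alpha cells in 1, the set as a covariate (0.00671 to 0.472). In the high set Mirg was at 13.1 to 16.1 FPKM in delta cells, 3.21 to 7.87 FPKM in alpha cells and 8.41 FPKM in beta sample 2. In the low set it was at 4.32 to 5.96 FPKM in delta, 1.62 to 2.73 FPKM in alpha and 1.45 to 2.19 FPKM in beta cells, so the delta samples were above the others within each set. Rian was at 143 to 307 FPKM in the high and 40.3 to 65.3 FPKM in the low set of alpha cells, at 286 FPKM and 18.2 to 83.2 FPKM in beta cells, and at 390 to 402 FPKM and 45.4 to 98.2 FPKM in delta cells. Rtl1 reached at most 1.71 FPKM, Begain 0.0655 FPKM, and Dio3 was listed at 0 in all 15 samples.

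Mest, an enzyme-like protein of the alpha/beta hydrolase fold expressed from the paternal copy, was highest in delta cells as well. The annotated gene is on chromosome 6, 30723547 to 30748465, plus strand. Mest was at 106, 67.0, 50.8, 46.3, 33.5 and 29.4 FPKM in delta samples 1 to 6, at 4.91, 27.1, 0.514, 1.18 and 1.81 FPKM in alpha samples 1 to 5 and at 0.243, 1.13, 0.363 and 1.58 FPKM in beta samples 1 to 4. Every delta sample was above every other sample, though the lowest, 29.4, was close to alpha sample 2. Delta less alpha was 3.57 (SE 0.607), delta less beta 4.88 (SE 0.647) and beta less alpha -1.31 (SE 0.672). Copg2, a coat protein gene whose last exons overlap those of Mest on the opposite strand (912 of 3945 exon bases of Mest), passed limma's test in none of the 3 comparisons (lowest adjusted p = 0.489, delta against beta), nor without adjustment. Klf14, a transcription factor gene of the same domain, was below the filter, at 0.254, 0.0693, 0.0532, 0.247, 1.02 and 0.174 FPKM in delta samples 1 to 6, and at most at 0.00754 FPKM in alpha and 0.00509 FPKM in beta cells.

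Plagl1, a zinc finger transcription factor also called Zac1 and expressed from the paternal copy, had the highest mean in delta cells but overlapped. It lies on chromosome 10, 13060504 to 13131694, plus strand. It was at 4.25, 2.19, 8.09, 23.0, 18.7 and 24.1 FPKM in delta samples 1 to 6, at 3.61, 0.028, 0.037, 0.470 and 5.53 FPKM in alpha samples 1 to 5 and at 0.984, 1.21, 3.84 and 1.13 FPKM in beta samples 1 to 4. The lowest values in delta cells were those of samples 1 and 2, the high set (mean 3.22 FPKM, n = 2), and the 4 delta samples of the low set had a mean of 18.4 FPKM. Delta less alpha was 2.35 (SE 0.622) and delta less beta 2.09 (SE 0.663). Beta less alpha was 0.26 (SE 0.689), and its sign changed under some of the alternatives. In the same domain Phactr2, a regulator of actin and protein phosphatase 1, was higher in delta cells than in alpha cells, by 1.29 (SE 0.296, adjusted p = 0.0118, limma) with no overlap between the samples, while the difference from beta cells, 0.87, did not pass the test (adjusted p = 0.0777). It passed in 3 of 23 alternatives (0.0237 to 0.315), which were the set as a covariate, the low set alone and the fit without delta sample 1. Phactr2 was at 0.836 to 4.47 FPKM in delta cells and at 0.154 to 0.714 FPKM in alpha cells. Across alternatives the adjusted p of delta against alpha cells lay between 0.00258 and 0.0477.

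**Figure D2:**
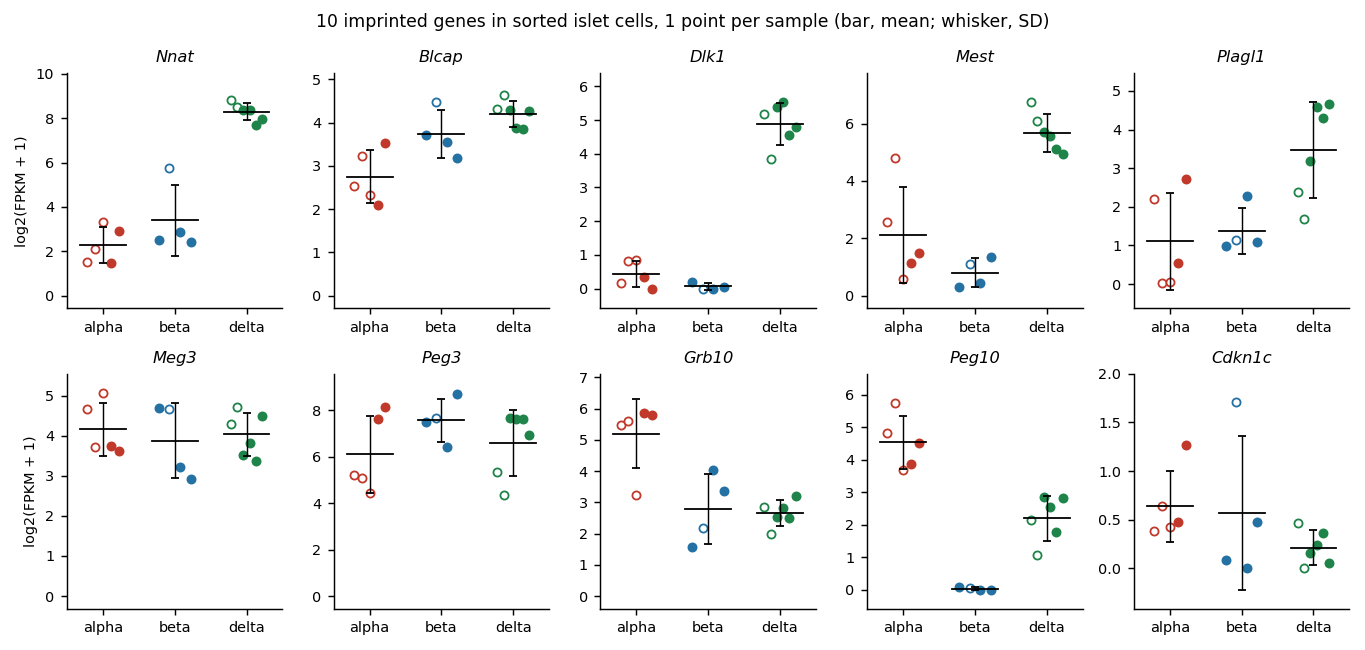
log2(FPKM + 1) of the 10 genes in each of the 15 samples, by cell type, with open points for samples of the high set, bars for means and whiskers for SD. Delta cells lie apart at the top for Nnat, Dlk1 and Mest, alpha cells for Peg10, and the cell types overlap in Meg3, Peg3 and Cdkn1c.

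Peg10, derived from a retrotransposon and expressed from the paternal copy, was highest in alpha cells. It lies on chromosome 6, 4747306 to 4760517, plus strand. It was at 27.6, 53.3, 12, 13.6 and 21.8 FPKM in alpha samples 1 to 5, at 3.48, 1.08, 6.22, 4.91, 2.44 and 6.06 FPKM in delta samples 1 to 6, at 0.0668, 0.0348 and 0.00400 FPKM in beta samples 1 to 3, and listed at 0 in beta sample 4. The 3 cell types did not overlap, in the order alpha, delta, beta. Beta less alpha was -4.50 (SE 0.440), delta less alpha -2.33 (SE 0.397) and delta less beta 2.17 (SE 0.423). A pseudocount of 0.1 moved the first to -7.49 and the last to 4.85, and delta less alpha was -1.68 in the low set alone.

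Sgce, the gene of epsilon-sarcoglycan, starts 98 bases from Peg10 and is read in the other direction. It was at 37.2, 84.5, 32.4, 17.0 and 26.5 FPKM in alpha samples 1 to 5, at 28.2, 15.9, 15.9, 14, 4.99 and 7.50 FPKM in delta samples 1 to 6, at 0.329 FPKM in beta sample 2 and listed at 0 in the other 3 beta samples. In beta cells Sgce was lower than in alpha cells, with a log2 difference of -5.03 (SE 0.477, adjusted p = 4.55e-06, limma) and higher in delta cells than in beta cells by 3.66 (SE 0.459, adjusted p = 5.31e-05). The difference of -1.37 between delta and alpha cells did not pass the test (adjusted p = 0.0736), but passed it in 4 of 24 alternatives (0.0123 to 0.304), which were median-ratio size factors (0.0123), quantile normalization (0.0231) and the fits without alpha sample 4 (0.0378) and without delta sample 1 (0.0345). FPKM of Sgce divided by that of Peg10 was 1.21 to 2.69 in alpha cells and 1.24 to 14.7 in delta cells. Among the delta samples it was highest in samples 2 and 1, the high set. In beta cells it was 9.47 in sample 2 and 0 in samples 1 and 3, with no ratio in sample 4, where both genes were listed at 0.

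Of the 8 other genes listed for the Peg10 domain 6 were tested, and 3 of them were lower in beta cells than in alpha cells, against 4.82% of all genes tested. Of these 3, Sgce and Asb4 were also higher in delta cells than in beta cells, as were 11.7% of all genes tested. Asb4, a subunit of ubiquitin ligases, was lower in beta cells than in alpha cells by -2.06 (SE 0.353, adjusted p = 0.00154) and higher in delta cells than in beta cells by 2.02 (SE 0.340, adjusted p = 0.000785). It was at 1.39 to 6.03 FPKM in alpha, 1.77 to 4.78 FPKM in delta and 0.0626 to 0.188 FPKM in beta cells, so the beta samples lay below all others. Ppp1r9a, a scaffold protein also called neurabin, was lower in beta cells than in alpha cells by -1.37 at the edge of the threshold (SE 0.405, adjusted p = 0.05). It passed in only 9 of 24 alternatives (0.0256 to 0.257). Casd1, next to Sgce, and the paraoxonase genes Pon2 and Pon3 passed the test in none of the comparisons. Pon2 passed without beta sample 2 in beta against alpha cells (adjusted p from 0.0364 to 0.417 over the alternatives) and, there and with quantile normalization, in delta against beta cells (0.0202 to 0.324), and Pon3 with size factors in beta against alpha cells (0.0245 to 0.637). Calcr, the calcitonin receptor, was at 0.0220 to 0.312 FPKM in alpha cells and listed at 0 in all beta and delta samples, and Tfpi2 reached at most 0.025, 0.522 and 0.0312 FPKM in alpha, beta and delta cells. Col1a2, a collagen gene 205.8 kilobases from the start of Peg10 and beyond Casd1, was in the list of mesenchymal cell markers and is named here after its values were seen. It was at 1.02, 1.45, 0.848, 3.79 and 3.71 FPKM in alpha samples 1 to 5 and at most at 0.00687 FPKM in beta and 0.0576 FPKM in delta cells. It was lower than in alpha cells in beta cells by -1.53 (SE 0.317, adjusted p = 0.00677) and in delta cells by -1.52 (SE 0.286, adjusted p = 0.00263), while Col1a1, Pdgfra, Pdgfrb and Lum, markers of the same cells, were listed at 0 in all alpha samples. Col3a1, the other gene of that list, reached 0.00774 FPKM in alpha cells and was listed at 0 in all beta and delta samples.

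**Figure D3:**
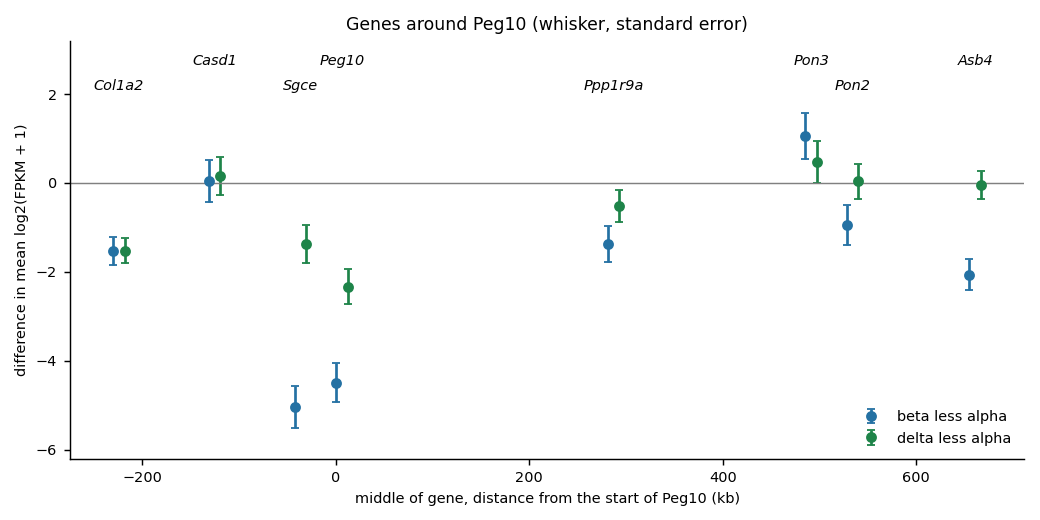
Difference of mean log2(FPKM + 1) from alpha cells, for beta (blue) and delta (green) cells, against the distance of the middle of each gene from the start of Peg10 in kilobases; whiskers are standard errors. Sgce and Peg10 have the lowest values in beta cells, Casd1 lies near 0 in both cell types, and Asb4 lies near 0 in delta cells and at -2.06 in beta cells.

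Grb10 encodes an adaptor that binds the insulin and IGF1 receptors and dampens their signal, and is expressed from the maternal copy in most tissues. It lies on chromosome 11, 11930508 to 12038683, minus strand. It was at 44.0, 47.8, 8.45, 57.6 and 54.9 FPKM in alpha samples 1 to 5, at 1.97, 3.49, 15.5 and 9.30 FPKM in beta samples 1 to 4 and at 6.14, 2.95, 4.78, 6.02, 4.68 and 8.29 FPKM in delta samples 1 to 6. Alpha sample 3 stood apart from the other alpha samples and lay within the range of beta cells, and every alpha sample was above every delta sample, alpha sample 3 by little. Beta less alpha was -2.42 (SE 0.571) and delta less alpha -2.56 (SE 0.515). Beta and delta cells overlapped, with a difference of -0.14 (SE 0.549) for delta less beta, which was 0.28 without beta sample 3 and 0.05 without beta sample 4.

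The neighbours of Grb10 had other patterns. Ddc, the decarboxylase that makes dopamine and serotonin from their precursors, was at 85.5 to 116 FPKM in alpha cells, 48.4 to 372 FPKM in beta cells and 1.42 to 9.20 FPKM in delta cells. It was lower in delta cells than in alpha cells by -4.09 (SE 0.471, adjusted p = 2.84e-05, limma) and than in beta cells by -4.54 (SE 0.502, adjusted p = 1.50e-05), with no overlap between delta cells and the others. Beta less alpha was 0.45 in Ddc and did not pass the test (adjusted p = 0.651). Cobl, an actin nucleator, was higher in delta cells than in beta cells by 1.48 (SE 0.466, adjusted p = 0.0426), but passed in only 10 of 23 alternatives (0.00991 to 0.102). In beta against alpha cells it did not pass as fitted (-1.17), but passed in 2 of 23 alternatives, the set as a covariate and the low set alone (adjusted p from 0.00787 to 0.304). In alpha cells Cobl was at 0.301 to 1.39 FPKM in the high and 5.04 to 5.41 FPKM in the low set. Of the relatives of Grb10 that lie elsewhere, named after their values were seen, Grb7 was higher in delta cells than in beta cells by 2.22 (SE 0.382, adjusted p = 0.000918) and Grb14 by 1.73 (SE 0.398, adjusted p = 0.00763). Grb7 did not pass the test in the other comparisons as fitted, but passed in 6 of 24 alternatives in beta against alpha cells (adjusted p from 0.0064 to 0.161) and in 4 in delta against alpha cells (0.0195 to 0.259), in both also without beta sample 2. Grb14 passed in neither of them under any alternative.

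Peg3, a large zinc finger protein expressed from the paternal copy, was among the more abundant of the 10 genes in every cell type and moved with the sets of samples. It lies on chromosome 7, 6703892 to 6730431, minus strand. It was at 36.4, 32.7, 20.9, 197 and 278 FPKM in alpha samples 1 to 5, at 39.1, 19.3, 205, 196, 198 and 120 FPKM in delta samples 1 to 6 and at 180, 200, 84.1 and 413 FPKM in beta samples 1 to 4. The alpha and delta samples of the high set were at 19.3 to 39.1 FPKM and those of the low set at 120 to 278 FPKM. Beta sample 2, of the high set, was at 200 FPKM and did not share this. Beta less alpha was 1.46 (SE 0.865) over all samples and -0.34 (SE 0.611) in the low set alone, and delta less alpha was 0.49 (SE 0.781) over all samples and -0.41 (SE 0.580) in the low set. Delta less beta was -0.97 (SE 0.832). Of the high set, alpha sample 2 and delta samples 1 and 2 had inferred depths of about 7.59, 10.8 and 9.92 M reads. Of the low set, alpha sample 5 and delta samples 3 and 4 had about 26.2, 30.2 and 25.3 M reads. The other samples were not resolved, and the inference is described with the processing. What sets these samples apart, depth included, was not tested.

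Usp29, a deubiquitinase gene that starts next to Peg3, and Zim1, a zinc finger gene expressed from the maternal copy, passed limma's test in none of the 3 comparisons (lowest adjusted p = 0.229, Zim1, delta against beta), and 0 of the 2 were under 0.05 without adjustment. With quantile normalization Zim1 passed in delta against beta cells (adjusted p from 0.0433 to 0.466 over the alternatives). In alpha cells Usp29 was at 0 to 1.04 FPKM in the high set and 3.49 to 4.51 FPKM in the low set. In delta cells it was at 0.199 to 0.451 FPKM in the high and 1.28 to 3.38 FPKM in the low set. Zim1 was at 0.706 to 3.61 FPKM and 5.91 to 8.67 FPKM in the high and low sets of alpha cells, and at 0.909 to 1.72 FPKM and 1.91 to 4.53 FPKM in those of delta cells. In beta sample 2 Usp29 was at 2.44 and Zim1 at 7.56 FPKM, within or above the range of the other beta samples.

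**Figure D4:**
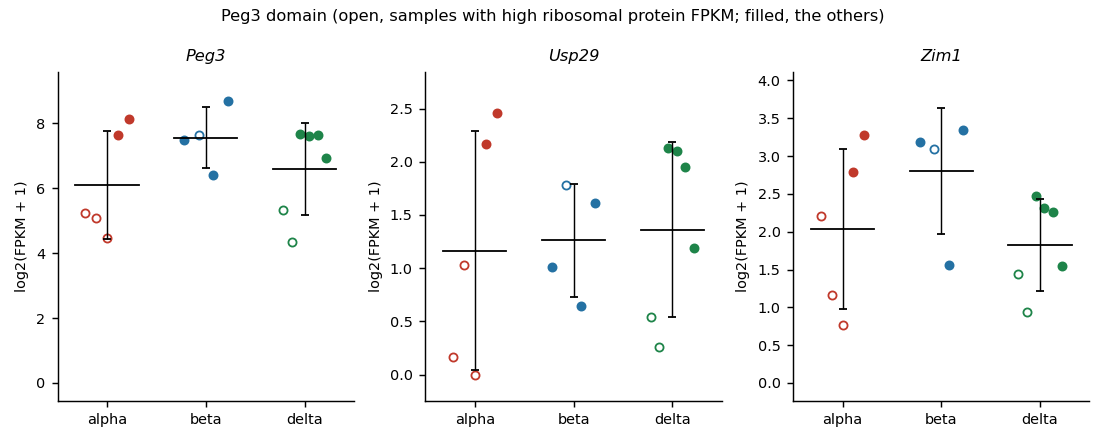
log2(FPKM + 1) of Peg3, Usp29 and Zim1 in each sample, with open points for the high set of samples, filled points for the low set, bars for means and whiskers for SD. In alpha and delta cells the open points lie below the filled ones for all 3 genes, and the open beta point does not.

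Cdkn1c, the cyclin-dependent kinase inhibitor p57 expressed from the maternal copy, was low throughout and was the only one of the 10 genes left out by the filter of a mean above 1 FPKM in a cell type. It lies on chromosome 7, 143458339 to 143461050, minus strand. It was at 0.303, 0.563, 0.341, 0.386 and 1.40 FPKM in alpha samples 1 to 5, at 0.0578, 2.28 and 0.393 FPKM in beta samples 1, 2 and 4, listed at 0 in beta sample 3, and in delta cells at 0.385, 0.113, 0.177, 0.287 and 0.0382 FPKM in samples 1 and 3 to 6 and listed at 0 in sample 2. The cell types overlapped. Of 5 other inhibitors of this kind that were tested, Cdkn2c, the inhibitor p18, was lower in delta cells than in alpha cells by -2.50 (SE 0.554, adjusted p = 0.00924, up to 0.0696 over the alternatives) and the others passed the test in no comparison. Without beta sample 2, Cdkn2c passed in beta against alpha cells as well (0.0335 to 0.38 over the alternatives), and with quantile normalization in delta against beta cells (0.0487 to 0.593).

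In the Cdkn1c domain Cd81, a tetraspanin of the cell surface, was at 152 to 316 FPKM in alpha cells, 192 to 285 FPKM in delta cells and 8.91 to 35.7 FPKM in beta cells. It was lower in beta cells than in alpha cells by -3.12 (SE 0.416, adjusted p = 0.000147, limma) and higher in delta cells than in beta cells by 3.32 (SE 0.401, adjusted p = 3.76e-05). Slc22a18, a transporter-like gene expressed from the maternal copy, was at 9.79, 0.948, 5.35, 4.96, 8.04 and 15.8 FPKM in delta samples 1 to 6 and at most at 1.08 FPKM in alpha and 0.886 FPKM in beta cells. It was higher in delta cells than in alpha cells by 2.52 (SE 0.446, adjusted p = 0.00158) and than in beta cells by 2.57 (SE 0.476, adjusted p = 0.00163), and delta sample 2 lay within the alpha range. Nap1l4, Osbpl5 and Tssc4 passed the test in none of the comparisons. Nap1l4 passed it in delta against beta cells under 4 of 24 alternatives (adjusted p from 0.021 to 0.186) and in beta against alpha cells under 2 (0.0332 to 0.258), in both without beta sample 2, while Osbpl5 and Tssc4 passed under none. Phlda2, Ascl2, Tspan32 and Kcnq1 reached at most 0.138 FPKM.

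**Figure D5:**
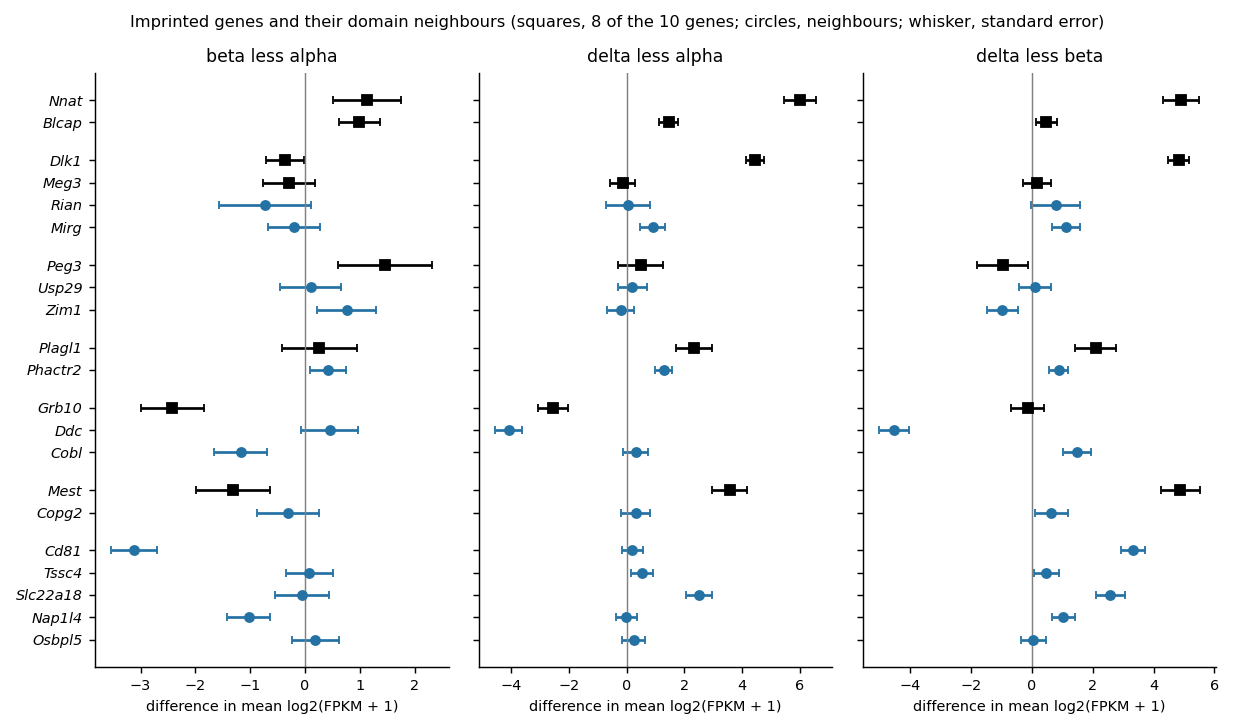
Differences of mean log2(FPKM + 1) for the genes of 7 imprinted domains that passed the filter, in the 3 comparisons of cell types. Black squares are 8 of the 10 genes (Cdkn1c was below the filter, and Peg10 is in the plot of its own domain). Blue circles are their domain neighbours, and whiskers are standard errors. Nnat, Dlk1 and Mest lie far to the right in delta cells while Meg3 lies near 0, and Ddc lies far to the left where Grb10 does not in the comparison of delta with beta cells.

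The share of genes that passed the test over the whole table is the background for the counts of other imprinted genes. At an adjusted p under 0.05, and of the 14405 genes tested, the comparison of beta with alpha cells had 2.84% of genes up and 4.82% down. Delta with alpha cells had 5.33% up and 1.48% down, and delta with beta cells 11.7% up and 2.99% down. Of the 9 of the 10 genes that passed the filter, 6 were above 1 FPKM in all 3 cell types, Peg10 and Mest in alpha and delta cells, and Dlk1 in delta cells only.

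Other imprinted genes, 64 by name, were taken from general knowledge of mouse imprinting, and 59 were found in the table and 39 tested. Whether each of them is imprinted in islet cells was not examined. In beta against alpha cells 1 was higher and 7 lower, with a median log2 difference of -0.18 beside -0.13 over all genes tested. In delta against alpha cells 4 were higher and 3 lower, with a median of 0.21 beside 0.13, and in delta against beta cells 9 were higher and 2 lower, with a median of 0.48 beside 0.30. Within them, the 19 tested neighbours in the domains of the 10 genes gave 0 higher (also 0 by limma's unadjusted p under 0.05) and 4 lower in beta against alpha cells, 2 and 1 in delta against alpha cells and 5 and 1 in delta against beta cells. The comparisons share samples, so these counts do not stand apart from each other.

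Outside those domains, Nespas, a non-coding RNA antisense to Gnas on chromosome 2, was at 28.4 to 52.6 FPKM in delta cells and at most at 0.313 FPKM in alpha and 0.437 FPKM in beta cells. It was higher in delta cells than in alpha cells by 5.19 (SE 0.246, adjusted p = 3.19e-09, limma) and than in beta cells by 5.24 (SE 0.262, adjusted p = 7.57e-09). Of its 3143 exon bases 988 lie in exons of Gnas on the other strand, so the reads of those bases cannot be told apart. Gnas, which encodes the stimulatory G protein alpha subunit, was lower in beta cells than in alpha cells by -2.52 (SE 0.388, adjusted p = 0.000589) and higher in delta cells than in beta cells by 2.38 (SE 0.373, adjusted p = 0.000444), while delta and alpha cells overlapped (904 to 1339 and 866 to 1856 FPKM). Rasgrf1, a Ras guanine nucleotide exchange factor, was higher than in alpha cells in beta cells by 4.39 (SE 0.544, adjusted p = 6.91e-05) and in delta cells by 4.20 (SE 0.491, adjusted p = 3.26e-05). The amino acid transporter Slc38a4 was lower in delta cells than in alpha cells by -2.44 (SE 0.416, adjusted p = 0.00116) and than in beta cells by -2.24 (SE 0.444, adjusted p = 0.00275). Necdin, Ndn, was lower in beta cells than in alpha cells by -2.17 (SE 0.470, adjusted p = 0.00920) and higher in delta cells than in beta cells by 2.45 (SE 0.453, adjusted p = 0.00163). Nap1l5 was lower in delta cells than in alpha cells by -2.65 (SE 0.454, adjusted p = 0.0012). Its difference of -1.69 between beta and alpha cells did not pass (adjusted p = 0.051) but did in 6 of 24 alternatives (0.00921 to 0.163), among them the fits without alpha sample 4 and without beta sample 2, and delta less beta, -0.96, passed in 3 (0.00999 to 0.47). The zinc finger gene Zfp787 was lower in beta cells than in alpha cells by -1.28 (SE 0.342, adjusted p = 0.0313, up to 0.0662 over the alternatives) and higher in delta cells than in beta cells by 1.18 (SE 0.329, adjusted p = 0.0233, up to 0.0622).

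The genes whose profile over the 15 samples was most like that of Nnat were sought among the other 14404 tested, by the root mean square difference of log2(FPKM + 1) after each gene's own mean was taken off. The median over genes was 2.86. Nespas was first, with a difference of 0.922, followed by Ctsh, a lysosomal cysteine protease (1.00), Fam159b (1.03), Hhex, the homeobox transcription factor of delta cells (1.08), and Tmed6, a protein of the early secretory pathway (1.16). Hhex is among the delta cell markers used above. Of the other imprinted genes followed here Dlk1 ranked 7th at 1.18, Mest 76th at 1.74, Plagl1 340th at 2.19, AL672259.1 556th at 2.30 and Blcap 585th at 2.31. Meg3 (2.88), Peg3 (3.23), Peg10 (3.76) and Grb10 (3.95) differed from Nnat by more than the median gene. The 15 points of a profile share cell type and library between genes. Dlk1, Mest, Plagl1, Blcap, Meg3, Peg3, Peg10 and Grb10 were chosen by their FPKM in these same cell types, with the differences already in view. Their ranks are therefore a description and cannot test whether imprinted genes are like Nnat in profile.

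Subunits of the signal peptidase complex, which cuts signal peptides off secreted proteins in the endoplasmic reticulum and with which neuronatin is known to associate, were examined beside Nnat. All 5, Sec11a, Sec11c, Spcs1, Spcs2 and Spcs3, were tested with limma and none passed in any comparison (lowest adjusted p = 0.212, Spcs3, delta against beta), and 0 of the 5 were under 0.05 without adjustment. Spcs3 passed in 3 of 24 alternatives, with size factors, quantile normalization and the set as a covariate, in beta against alpha cells (adjusted p from 0.0207 to 0.583) and in delta against beta cells (0.0106 to 0.486). The other 4 passed in none. Of the Notch receptors and the Dlk1 relative that were listed, 2 of 5 were tested, Notch1 and Notch4, and neither passed (lowest adjusted p = 0.0609, Notch1, delta against beta), with Notch1 under 0.05 without adjustment. Notch1 passed in delta against beta cells in 4 of 24 alternatives (0.015 to 0.22), among them the fits without alpha sample 5, beta sample 3 or delta sample 1, and in delta against alpha cells without alpha sample 5 (0.0308 to 0.694). Of the relatives of Plagl1, Plagl2, also named after its values were seen, was higher in delta cells than in beta cells by 0.99 (SE 0.310, adjusted p = 0.0419). That difference passed in 12 of 23 alternatives (0.00611 to 0.232). Plag1 passed in no comparison.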

How the data were processed

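RNA of sorted alpha (n = 5), beta (n = 4) and delta cells (n = 6) was amplified and sequenced as single reads. Per the labels and the submitters' processing notes, the authors aligned reads to GRCm38 with TopHat2 2.0.8 and deposited gene FPKM that Cufflinks 2.2.1 had estimated in each sample; their edgeR comparison used raw counts, which were not used here. Steps of single reads in the low FPKM values of 5024 genes with 1 transcript gave depths of about 7.59 to 30.2 M reads in 6 samples; in the other 9 depth is unknown, so no floors are given. Genes with a mean above 1 FPKM in a cell type (14405) were tested with limma 3.58.1 (R 4.3.3) on log2(FPKM + 1), 1 mean per cell type, Benjamini-Hochberg adjustment over all 14405, threshold 0.05. On simulated data for delta against alpha cells, 166 of 200 genes changed by 3 on the log2 scale were recovered with 11 false calls.

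Members and gene lists were chosen with earlier results of these data known. Genes named are the 10 members, the microRNA entry, the genes listed for their domains (those not tested by their range), of other imprinted and related genes up to 3 in each direction per comparison by size among those past the threshold, and the 5 nearest Nnat in profile; any other gene with a test is marked in the text as named after its values were seen. Gene positions are from GENCODE M21. Rian and Mirg were matched by gene identifier. Alternatives were other pseudocounts, filters, scalings, fits of 2 cell types, a replicate block, the sample set as covariate or its low set alone, and leaving out each sample. Samples were sorted into sets at a summed ribosomal protein FPKM of 50000. Python 3.11.15, numpy 2.4.6, pandas 2.3.3 and matplotlib 3.10.9 were used.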

Additional observations from a re-analysis of the deposited data

Results flagged for a closer look

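Each of 33 groups (the 10 genes and AL672259.1 in 3 cell types) was examined on the log2(FPKM + 1) scale for a sample far from the others by Dixon's criterion, which chance alone meets in about 1 in 20 groups, and 3 met it. Nnat in beta sample 2 was 53.6 FPKM, and the other beta samples were between 4.32 and 6.40 FPKM; the gap was 0.858 of the range. Plagl1 in beta sample 3 was 3.84 FPKM, and the others were between 0.984 and 1.21 FPKM, a gap of 0.880 of the range. Grb10 in alpha sample 3 was 8.45 FPKM, and the others were between 44.0 and 57.6 FPKM, a gap of 0.855 of the range.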

How the results depend on the processing

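Of 750 values under an alternative, for the 9 genes that passed the filter and the microRNA entry, 37 moved by more than 1 standard deviation or changed sign. All were in Dlk1, Meg3, Peg3, Plagl1, Grb10, Peg10 and Mest. Nnat kept its direction in every alternative, with delta less alpha between 5.83 and 6.37. Over all genes, 2072 passed in beta against alpha cells with median-ratio size factors, 2056 with quantile normalization and 520 in the fit of those 2 cell types, against 1104 in the fit reported. Leaving out 1 sample gave 698 (without beta sample 4) to 1743 (without beta sample 2). Requiring a mean above 5 FPKM left 518 for delta against alpha and 1319 for delta against beta cells. Other imprinted genes passing in beta against alpha cells were 13 with size factors, against 8. Size factors moved the median of all genes by 0.13, -0.12 and -0.28 in the 3 comparisons and quantile normalization by 0.12, -0.14 and -0.29; of the genes passing, 52.7%, 67.9% and 51.5% were then higher with size factors and 48.1%, 61.4% and 53.1% with quantile normalization, against 37%, 78.3% and 79.6%. The cause was not tested. Correlations of the 13 same-numbered pairs, after each cell type's mean was taken off, ran from -0.152 to 0.281, and 5 were above 0.1. Pairs with different numbers were not computed, so whether replicate numbers pair the samples was not settled. With a replicate block 1227, 831 and 2001 genes passed, and 6, 7 and 13 other imprinted genes. Of 783 values of other genes past the threshold, or of Sgce, 726 stayed on their side of it; Ndn in beta against alpha cells did not in the fit of those 2 cell types (adjusted p = 0.0568). Depth, which was inferred rather than measured and only in 6 samples, limits values near 0.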

Other observations

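Zdbf2, a paternally expressed zinc finger gene outside the domains above and named after its values were seen, moved with the sets of samples as Peg3 did. In alpha cells it was at 2.06 to 8.56 FPKM in the high set and at 16.3 to 27.8 FPKM in the low set, and in delta cells at 3.49 to 4.15 FPKM and 10.6 to 29.3 FPKM. Beta sample 2, of the high set, was at 6.57 FPKM, within the 6.35 to 9.18 FPKM of the other beta samples. Zdbf2 passed the test in none of the 3 comparisons (lowest adjusted p = 0.559, delta against beta, by limma). In the low set alone delta less beta was 1.30 and passed (adjusted p = 0.04, up to 0.844 over the alternatives), and beta less alpha was -1.44 beside -0.18 over all samples (lowest adjusted p of its alternatives 0.0796).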
